A study of Rattus norvegicus with 30 samples.

Results

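The prostaglandin and leukotriene synthesis genes described here were 10 of the 22914 genes counted in rat lung, picked by gene symbol. They were Pla2g4a, Ptgs1, Ptgs2, Ptges, Ptgis, Hpgd, Alox5, Alox5ap, Ltc4s and Alox15. Each symbol matched a single gene, and all 10 were among the 15934 genes with enough reads to be tested. RNA-seq had been performed on the lungs of 30 male Sprague Dawley rats aged 8 weeks, with 3 rats in each of 10 groups, to ask how emodin and dexamethasone (DEX) change lung gene expression in acute lung injury caused by severe acute pancreatitis (SAP). The rats were killed at 6 or 24 hours, and each group is named by its treatment and time. In Sham-6h and Sham-24h the pancreas was only turned over. Rats of Con-6h and Con-24h had saline put into the duct of the bile and pancreas. All rats named SAP, DEX or Emo instead received 5.0% sodium taurocholate there, which as a bile salt damages pancreatic tissue. Dexamethasone, which acts on the glucocorticoid receptor, was injected intravenously at 10 mg/kg. Emodin, an anthraquinone from rhubarb, was given into the stomach, at 40 mg/kg by the protocol and 10 mg/kg by the sample descriptions. Both drugs were given at 2 and 12 hours, so the rats of DEX-6h and Emo-6h had received only the first dose. Rats that did not receive a drug were given its vehicle.

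Eicosanoids are lipid mediators made from arachidonic acid, which cytosolic phospholipase A2 releases from membranes. Cyclooxygenases turn it into prostaglandin H2, and terminal synthases turn that into prostaglandin E2, prostacyclin and other prostanoids. 5-lipoxygenase, helped by the membrane protein FLAP, instead makes leukotriene A4, the precursor of leukotriene B4, which attracts neutrophils, and of the cysteinyl leukotrienes, which constrict airways and make vessels leak. The lung is a main site where circulating prostaglandins are broken down.

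Reads counted on genes ranged from 16813949 to 34692306 per library, with a median of 27554901, and the shallowest library was replicate 3 of SAP-6h. By the authors' mapping summary, every Sham and Con library had a higher share of uniquely mapped reads than every SAP, DEX and Emo library. This split runs along with taurocholate, and its part in the results was not tested. For pairs of libraries of a group, the chi-square per degree of freedom over all genes was 35.4 to 197, where counting alone gives about 1. Abundant genes weigh most in this value, so it does not describe genes with few reads. It was highest for replicates 1 and 2 of SAP-24h. The alveolar type 1 cell genes Ager and Hopx were present in every library, at 368 to 1890 and 634 to 1460 FPKM, whereas the macrophage gene Marco was at 0 in 15 libraries. The summed FPKM of 6 heart muscle genes ran from 1.96 to 216 over all lungs and from 78.9 to 158 in Emo-24h, and its part in the results was not tested. The summed FPKM of 5 glucocorticoid target genes was 339 to 433 in the 6 DEX lungs and 101 to 271 in the other lungs.

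FPKM, which is scaled for gene length, allows levels to be compared between genes. By this measure Alox5ap was the most abundant member, with a mean of 140.0 FPKM over the 30 lungs. Hpgd followed with 34.5 FPKM, Ptgis with 25.8 FPKM, Ptgs1 with 21.0 FPKM and Alox5 with 17.1 FPKM. Alox15 had a mean of 10.1 FPKM and Pla2g4a of 1.79 FPKM, and Ltc4s lay between 5.50 and 20.9 FPKM. Ptgs2 and Ptges were the lowest, at 0.524 and 0.75 FPKM, with 15 to 210 and 13 to 82 reads per library. The members also differed in how far rats of 1 group lay apart. The median coefficient of variation within groups was 6.96% for Ptgis and 56.1% for Alox15.

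**Figure D1:**
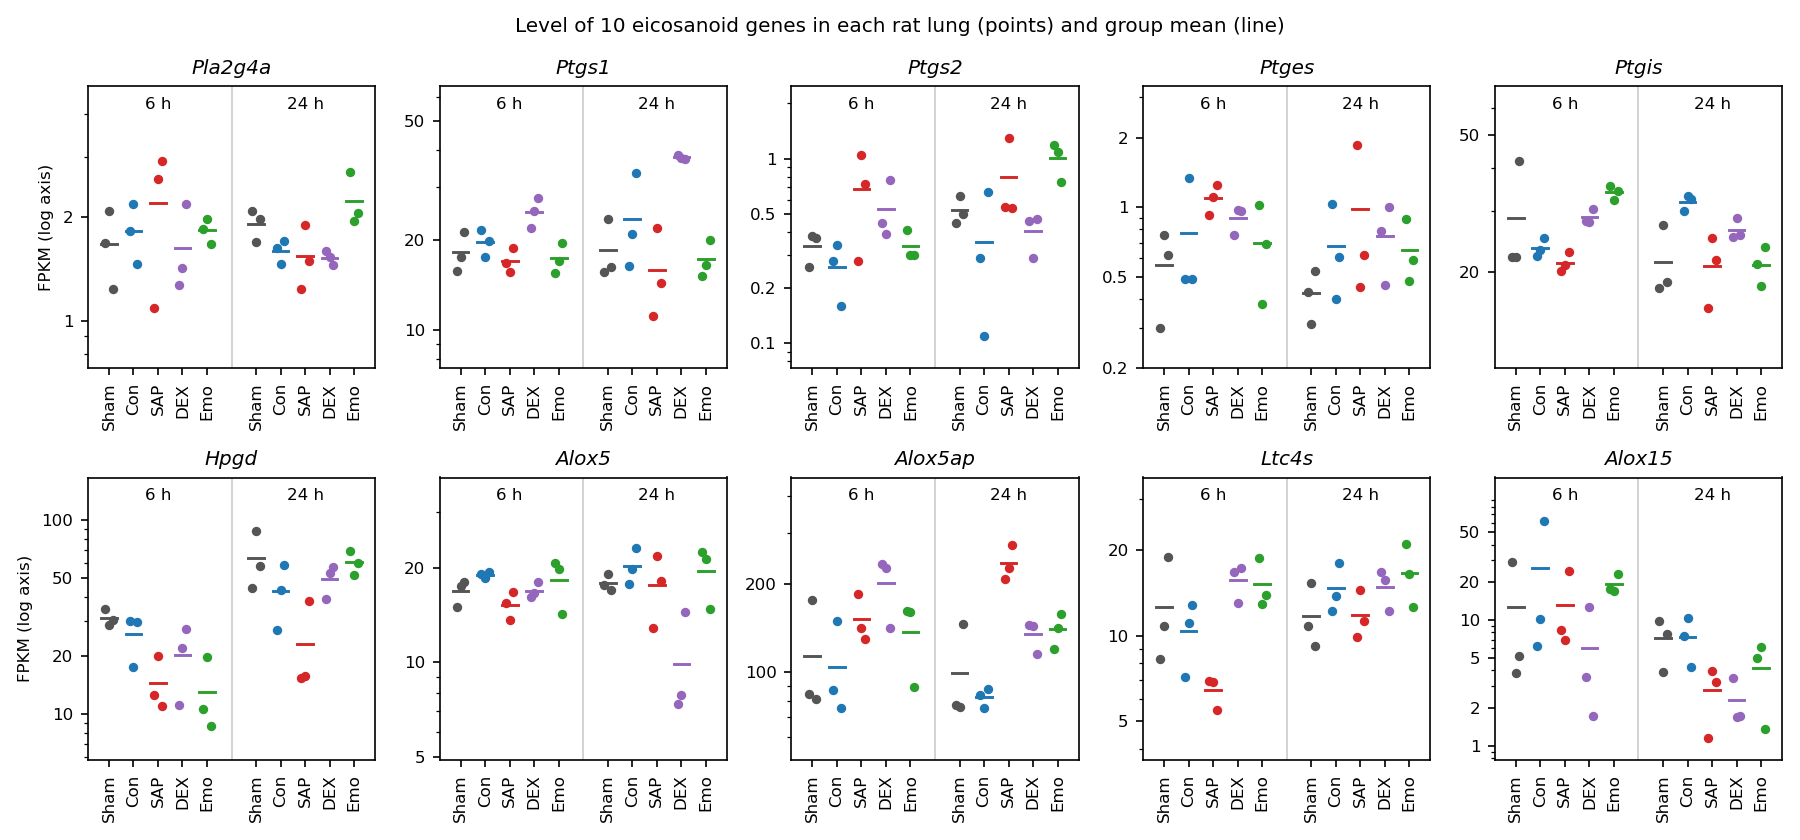
Level of the 10 genes in FPKM (log axis) in each lung, 1 panel per gene, with 6 hours to the left and 24 hours to the right of the grey line; points are rats and the line is the mean of 3 rats. Ptgs1 in DEX-24h and Alox5ap in SAP-24h lie above every other group at that time, and Alox15 is scattered within most groups.

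A gene was called up- or down-regulated at an adjusted p under 0.05 and at least 2-fold in edgeR's quasi-likelihood test. In the 17 comparisons of 2 groups, 11 of 170 tests of members were called, against 2.73% of all 270878 tests. At least once, 6 of the 10 members were called, against 23.7% of all tested genes. Pla2g4a, Ptges, Ptgis and Alox5 were called in none. Of the 11 calls, 5 held when each library was left out in turn. The RNA came from lung tissue with all its cells, so fewer cells of a type and less RNA per cell cannot be told apart.

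At 6 hours few genes of any kind were called. No member was called for SAP-6h vs Sham-6h, where 0.220% of all tested genes were, or for SAP-6h vs Con-6h with 0.163%. In each of these, 3 of the 10 members had an unadjusted p under 0.05, against 13.1% and 10.4% of all genes, and DESeq2 also called 0. No member was called between Sham-6h and Con-6h by edgeR or DESeq2, with 0% of all genes called, and 0 members had an unadjusted p under 0.05 (8.61% of all genes). Only Ltc4s was called for DEX-6h vs SAP-6h, against 0.515% of all genes. For Emo-6h vs SAP-6h and Emo-6h vs DEX-6h the counts of members were 0 in both edgeR and DESeq2, and 0.0251% and 1.41% of all genes were called. At an unadjusted p they had 3 members (13.5% of all genes) and 1 member (17.3%).

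At 24 hours, Hpgd and Alox5ap were called for SAP-24h vs Sham-24h, where 5.00% of all genes were. Alox5ap alone was called for SAP-24h vs Con-24h, with 6.91% of all genes. Between Sham-24h and Con-24h no member was called by edgeR or by DESeq2 against 1.00% of all genes, and 1 had an unadjusted p under 0.05 (27.0% of all genes). Ptgs1 was called for DEX-24h vs SAP-24h, Hpgd for Emo-24h vs SAP-24h and Ptgs1 for Emo-24h vs DEX-24h, with 3.73%, 3.19% and 5.06% of all genes. These comparisons share their SAP-24h or DEX-24h lungs. The median log2 fold change of the members was 0.09 for SAP-24h vs Sham-24h (-0.03 over all tested genes). It was -0.22 for DEX-24h vs SAP-24h (0.00 over all genes) and 0.09 for Emo-24h vs SAP-24h (0.02 over all genes), and 6, 4 and 5 of the 10 members were higher in these comparisons.

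**Figure D2:**
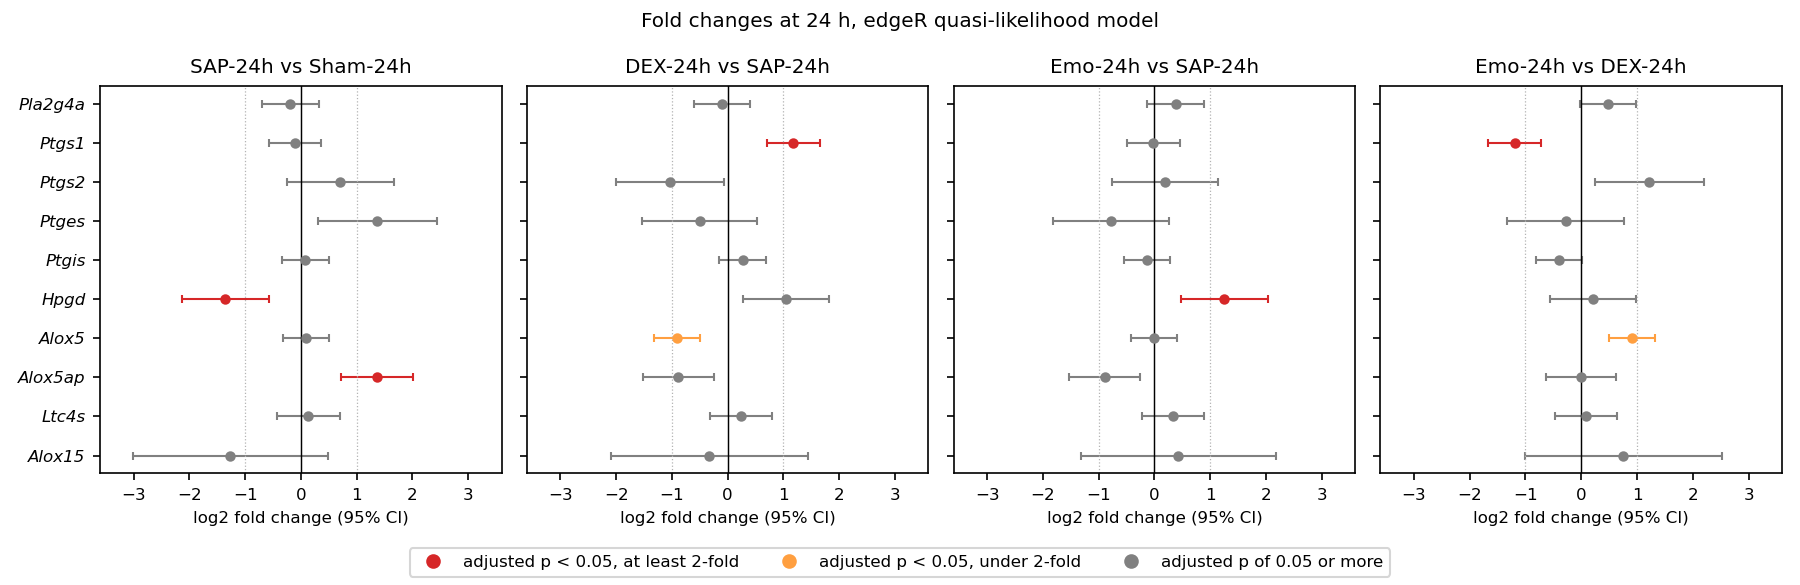
Log2 fold change of each gene in 4 comparisons at 24 hours, with its 95% confidence interval from the edgeR model; dotted lines mark 2-fold, and colours mark the adjusted p and the fold limit. The called genes are Hpgd and Alox5ap in SAP-24h vs Sham-24h, Ptgs1 in both comparisons that involve DEX-24h, and Hpgd in Emo-24h vs SAP-24h.

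Pla2g4a, the cytosolic phospholipase A2 that starts the pathway, stayed in a narrow range. Its group means ran from 1.52 FPKM in DEX-24h to 2.23 FPKM in Emo-24h, and its log2 fold changes in the 17 comparisons from -0.43 to 0.48. The 3 Emo-24h lungs had 2.70, 1.95 and 2.05 FPKM, and the 3 DEX-24h lungs had 1.59, 1.53 and 1.45 FPKM. These groups did not overlap. The difference of 0.48 on the log2 scale had an interval of -0.03 to 0.99 and an adjusted p of 0.269.

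Ptgs1 encodes cyclooxygenase-1, the form that most tissues make constantly and that platelets use for thromboxane. It was highest after DEX. The DEX-24h lungs had 38.6, 37.5 and 37.3 FPKM, and the SAP-24h lungs had 11.2, 22.0 and 14.3 FPKM. The 3 DEX-24h lungs were nearly equal, and all of them lay above every other lung in the series. Ptgs1 was up-regulated in DEX-24h vs SAP-24h by 1.18 on the log2 scale (SE 0.23, adjusted p = 0.00298), which is 2.26-fold. The call held without any 1 library (adjusted p up to 0.0219), and was lost when only these groups were modelled (adjusted p = 0.0505).

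Emo-24h had 15.2, 16.5 and 19.95 FPKM of Ptgs1, well below DEX-24h. In Emo-24h vs DEX-24h it was down-regulated (log2 fold change -1.19, SE 0.23, adjusted p = 0.00208), and this call held under every setting tried. Between SAP-24h and Sham-24h, Ptgs1 differed by -0.11 (interval -0.58 to 0.36). At 6 hours DEX-6h had 21.85, 25.0 and 27.6 FPKM and SAP-6h had 16.7, 15.6 and 18.8 FPKM. The groups did not overlap, but the log2 difference of 0.54 had an adjusted p of 0.313. Emo-6h had 15.5, 17.0 and 19.5 FPKM, below all DEX-6h lungs (-0.52, adjusted p = 0.232).

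Platelet genes were compared as well, since platelets carry this enzyme. The summed FPKM of 7 platelet genes was 56.9 to 86.5 in DEX-24h and 33.1 to 140.0 in SAP-24h, and 0 of the 7 were called between these groups. From DEX-6h to DEX-24h, 5 of the 7 were called lower, with a median log2 fold change of -1.65. Ptgs1 differed by 0.63 in that comparison (adjusted p = 0.0441, under 2-fold), and the adjusted p was 0.0737 to 0.141 on leaving out any 1 of the 6 libraries. The defining platelet genes Pf4 and Ppbp were above 0 in every library. Of 5 smooth muscle genes, 1 was higher in DEX-24h vs SAP-24h. The 8 mast cell genes summed to 55.3 to 73.7 FPKM in DEX-24h and 21.9 to 37.1 FPKM in SAP-24h, with 1 called higher and a median log2 fold change of 0.066. Kit had the highest median level of the 8 over all lungs, at 25.5 FPKM, and so counts most in such a sum. The part of platelets, smooth muscle or mast cells in the Ptgs1 result was not tested.

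Ptgs2 encodes cyclooxygenase-2, the form induced in inflammation and a classical target of glucocorticoid repression. The Emo-24h lungs had 1.18, 1.09 and 0.75 FPKM, and the Emo-6h lungs had 0.41, 0.30 and 0.30 FPKM. All 3 lungs at 24 hours were above all 3 at 6 hours. Ptgs2 was up-regulated in Emo-24h vs Emo-6h by 1.52 (SE 0.48, adjusted p = 0.0172). Without replicate 2 or replicate 3 of Emo-6h the adjusted p was 0.0564 or 0.0569. Sham-24h also lay above Sham-6h in every lung, at 0.45 to 0.63 against 0.26 to 0.38 FPKM, and was not called. In Con, SAP and DEX the lungs of the 2 times overlapped.

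In the other comparisons Ptgs2 was not called. SAP-6h had 0.28, 1.05 and 0.73 FPKM, and Con-6h had 0.28, 0.34 and 0.16 FPKM, so that 1 lung of SAP-6h was as low as the controls. The difference was 1.45 on the log2 scale (adjusted p = 0.248). It was 1.06 from Sham-6h, which had 0.26, 0.38 and 0.37 FPKM (adjusted p = 0.337), and -1.02 in Emo-6h vs SAP-6h (adjusted p = 0.355). On leaving out 1 library the difference from Con-6h ran from 1.01 to 1.80 and that from Sham-6h from 0.62 to 1.41. The Emo-6h vs SAP-6h difference ran from -1.37 to -0.58. SAP-24h had 0.55, 1.29 and 0.54 FPKM, and Con-24h had 0.29, 0.11 and 0.66 FPKM. This difference of 1.29 had an adjusted p of 0.0542 by edgeR and 0.0277 by DESeq2, and in edgeR it was 2.12 without replicate 3 of Con-24h (adjusted p = 0.00529) and 1.52 without replicate 3 of SAP-24h (adjusted p = 0.0443), both called. It was 0.78 without replicate 2 of SAP-24h (adjusted p = 0.276) and 0.86 without replicate 2 of Con-24h (adjusted p = 0.242). Sham-24h, at 0.45 to 0.63 FPKM, overlapped with SAP-24h. The log2 difference from Sham-24h was smaller, at 0.71, and ran from 0.20 to 0.94 without 1 library (edgeR, adjusted p 0.24 to 0.83). DEX-24h had 0.46, 0.29 and 0.47 FPKM, below all SAP-24h lungs, with a log2 difference of -1.04 (adjusted p = 0.183), and of -0.52 without replicate 2 of SAP-24h (adjusted p = 0.561). Emo-24h lay above all DEX-24h lungs by 1.22 (adjusted p = 0.113, and 0.0300 when only these groups were modelled).

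Ptges encodes microsomal prostaglandin E synthase-1, which works with cyclooxygenase-2. SAP-24h had 1.86, 0.45 and 0.62 FPKM and Sham-24h had 0.43, 0.31 and 0.53 FPKM. Replicate 1 of SAP-24h stood far above the rest, replicate 3 lay above all Sham-24h lungs and replicate 2 lay within their range. The log2 difference was 1.37 (adjusted p = 0.0818 by edgeR and 0.0490 by DESeq2), and without replicate 1 of SAP-24h it was 0.43 (edgeR, adjusted p = 0.645). Without replicate 2 of SAP-24h it was 1.75 and was called (adjusted p = 0.0352). At 6 hours SAP-6h had 0.92, 1.11 and 1.25 FPKM and Sham-6h had 0.30, 0.76 and 0.62 FPKM, which did not overlap (1.00 on the log2 scale, adjusted p = 0.415). Con-6h had 0.49, 1.33 and 0.49 FPKM and overlapped with SAP-6h (0.59, adjusted p = 0.742).

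Ptgis encodes prostacyclin synthase, an enzyme of vessel walls whose product widens vessels and inhibits platelets. It was never called, and it varied little between rats of most groups. At 6 hours Emo-6h had 35.6, 32.3 and 34.5 FPKM and DEX-6h had 28.0, 28.0 and 30.5 FPKM. Both groups lay above SAP-6h, with 20.1, 20.9 and 22.9 FPKM. The log2 differences from SAP-6h were 0.67 for Emo-6h (adjusted p = 0.221) and 0.43 for DEX-6h (adjusted p = 0.384). The 5 smooth muscle genes summed to 345 to 443 FPKM in Emo-6h, 200 to 478 FPKM in DEX-6h and 213 to 262 FPKM in SAP-6h. None of the 5 was called in Emo-6h vs SAP-6h, where their median log2 fold change was 0.61. At 24 hours Emo-24h had 21.1, 18.2 and 23.6 FPKM, below all DEX-24h lungs with 25.3, 28.7 and 25.5 FPKM. The order of the drug groups was thus opposite at the 2 times, but the difference of the emodin and DEX contrast between them was -0.64 with an adjusted p of 0.452.

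From Emo-6h to Emo-24h, Ptgis differed by -0.74 (adjusted p = 0.00685), which is under 2-fold. The smooth muscle sum in Emo-24h was 230 to 342 FPKM (median log2 fold change -0.45, 0 of the 5 called), and its part in the Ptgis values was not tested. Con-24h was the highest group at that time, with 29.98, 33.3 and 32.5 FPKM. Sham-24h vs Con-24h differed by -0.58 (adjusted p = 0.0660) and SAP-24h vs Con-24h by -0.50 (adjusted p = 0.0777), and all lungs of both groups lay below all Con-24h lungs. The 6 endothelial genes summed to 518 to 597 FPKM in Con-24h, 424 to 524 FPKM in Sham-24h and 385 to 398 FPKM in SAP-24h, with 1 called lower in SAP-24h vs Con-24h (median -0.49) and 0 in Sham-24h vs Con-24h (median -0.31). The smooth muscle sum was 225 to 438 FPKM in Con-24h, 216 to 343 FPKM in Sham-24h and 142 to 203 FPKM in SAP-24h, with 0 called in either (medians -0.78 for SAP-24h and -0.27 for Sham-24h). The part of these cells in the Ptgis differences from Con-24h was not tested. From Con-6h to Con-24h Ptgis differed by 0.49 (adjusted p = 0.368).

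Hpgd encodes 15-hydroxyprostaglandin dehydrogenase, which inactivates prostaglandins. It was the member called most often, in 4 comparisons. Sham-24h had 44.9, 87.6 and 57.6 FPKM, and SAP-24h had 15.35, 15.7 and 38.1 FPKM. All SAP-24h lungs lay below all Sham-24h lungs. Hpgd was down-regulated in SAP-24h vs Sham-24h (log2 fold change -1.36, SE 0.38, adjusted p = 0.0222), a 2.56-fold lower level. The call was lost without replicate 1 of SAP-24h (-1.16, adjusted p = 0.102), replicate 2 of SAP-24h (-1.13, 0.0830) or replicate 2 of Sham-24h (-1.03, 0.122). It was also lost when only these groups were modelled (adjusted p = 0.143).

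Con-24h had 27.04, 43.35 and 58.5 FPKM of Hpgd, which overlapped with SAP-24h (log2 difference -0.79, adjusted p = 0.134). Without replicate 3 of SAP-24h the difference was -1.31 and was called (adjusted p = 0.0258), and without replicate 3 of Con-24h it was -0.51 (adjusted p = 0.381). At 6 hours SAP-6h had 12.6, 19.8 and 11.0 FPKM and Sham-6h had 34.85, 28.7 and 30.5 FPKM. These groups did not overlap, and the difference of -1.07 had an adjusted p of 0.205. Con-6h had 30.2, 17.5 and 29.7 FPKM and overlapped with SAP-6h (-0.77, adjusted p = 0.485).

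Both drug groups lay above SAP-24h for Hpgd. Emo-24h had 69.5, 52.2 and 60.15 FPKM, all above the SAP-24h lungs. It was up-regulated in Emo-24h vs SAP-24h by 1.26 (SE 0.38, adjusted p = 0.0412). This call rested on all 6 lungs except replicate 3 of SAP-24h, without which it was 1.78 (adjusted p = 0.0122). It was lost without replicate 1 (1.17, adjusted p = 0.111), 2 (1.34, 0.0851) or 3 (1.20, 0.0811) of Emo-24h and without replicate 1 (1.05, 0.146) or 2 (1.02, 0.132) of SAP-24h, and also when only these groups were modelled (adjusted p = 0.136). DEX-24h had 39.3, 53.1 and 57.3 FPKM, also above all SAP-24h lungs. That difference of 1.04 was not called (adjusted p = 0.0890), although DESeq2 called it (adjusted p = 0.0451) and so did edgeR without replicate 3 of SAP-24h (1.57, 0.0220). Without replicate 1 or 2 of SAP-24h it was 0.86 or 0.83 (adjusted p = 0.263 and 0.239).

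Marker genes of other cells moved in SAP-24h vs Sham-24h. The summed FPKM of 5 alveolar type 1 cell genes was 1280 to 2530 over the SAP-24h lungs and 2370 to 3100 over those of Sham-24h, and 1 of the 5 was called lower. The 8 mast cell genes summed to 21.9 to 37.1 FPKM in SAP lungs and 37.6 to 65.1 FPKM in Sham lungs at 24 hours, and 3 of the 8 were called lower. The 6 endothelial genes summed to 385 to 398 FPKM in SAP-24h and 424 to 524 FPKM in Sham-24h, with 1 called lower (median log2 fold change -0.19). The 5 smooth muscle genes summed to 142 to 203 FPKM in SAP-24h and 216 to 343 FPKM in Sham-24h, with 0 called (median -0.55). The groups overlapped for the alveolar type 1 sum and not for the other sums. The defining genes of these lists, Ager and Hopx, Cpa3 and Kit, Cdh5 and Tek, and Myh11 and Acta2, were above 0 in every library. In SAP-24h vs Sham-24h 1 of 8 neutrophil genes (median 1.71) and 1 of 7 macrophage genes (median 0.28) were also called higher. One of the eosinophil genes was called lower (median -2.29). The 4 club cell genes summed to 37400 to 47200 FPKM in SAP-24h and 20000 to 36200 FPKM in Sham-24h. This sum went up without overlap, with 0 of the 4 called (median 0.29). The part of all these cells in the Hpgd result was not tested. In Emo-24h vs SAP-24h, where Hpgd was higher, 0 of the 5 alveolar type 1 genes were called, and their sum in Emo-24h was 1590 to 2310 FPKM. The mast cell sum was 45.8 to 48.5 FPKM in Emo-24h, above all SAP-24h lungs, with 0 of the 8 genes called and a median log2 fold change of 0.69. The endothelial sum was 431 to 569 FPKM in Emo-24h (median 0.17) and the smooth muscle sum 230 to 342 FPKM (median 0.64), both above all SAP-24h lungs with 0 genes called.

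Alox5 encodes 5-lipoxygenase, the enzyme that begins leukotriene synthesis. It was lowest in DEX-24h. DEX-24h had 7.34, 7.87 and 14.5 FPKM, SAP-24h had 12.8, 21.8 and 18.1 FPKM, and Emo-24h had 22.4, 21.3 and 14.75 FPKM. Replicates 1 and 2 of DEX-24h lay below all other lungs of the series, and replicate 3 lay within the range of SAP-24h. In DEX-24h vs SAP-24h, Alox5 differed by -0.91 (SE 0.20, adjusted p = 0.00701), which passed the adjusted p and stayed under 2-fold. Without replicate 3 of DEX-24h it was -1.28 (adjusted p = 0.000639), and without replicate 1 of SAP-24h it was -1.06 (adjusted p = 0.00486), both called. Without replicate 1 of DEX-24h it was -0.72 and the adjusted p was 0.0532.

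In Emo-24h vs DEX-24h, Alox5 was higher by 0.91 (SE 0.20, adjusted p = 0.00595). Without replicate 3 of DEX-24h the difference was 1.25 (adjusted p = 0.000652), and without replicate 3 of Emo-24h it was 1.00 (adjusted p = 0.00419), both called. In the other fits without 1 library it was not called, down to 0.69, with an adjusted p up to 0.0485. At 6 hours DEX-6h had 16.1, 16.6 and 18.0 FPKM, and SAP-6h had 15.4, 13.6 and 16.7 FPKM (log2 difference 0.14, interval -0.27 to 0.55). The DEX effect at 24 hours minus that at 6 hours was -1.05 (SE 0.28). It was not called by edgeR (adjusted p = 0.109) and was called by DESeq2 (-1.09, adjusted p = 0.0180). Without replicate 3 of DEX-24h it was -1.43 in edgeR and was called (adjusted p = 0.0263). In the other fits without 1 library it was not called, and it shrank to -0.87 at the least, with an adjusted p up to 0.302. SAP-24h differed from Sham-24h by 0.09 (interval -0.32 to 0.50). The 8 neutrophil genes summed to 1640 to 4830 FPKM in DEX-24h, 4760 to 17800 FPKM in SAP-24h and 4720 to 6950 FPKM in Emo-24h. In DEX-24h vs SAP-24h 2 of the 8 were called lower (median log2 fold change -1.84), and in Emo-24h vs DEX-24h 0 were called (median 0.73). S100a8 and S100a9, which define them, were above 0 in every library, and their part in the Alox5 values was not tested.

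**Figure D3:**
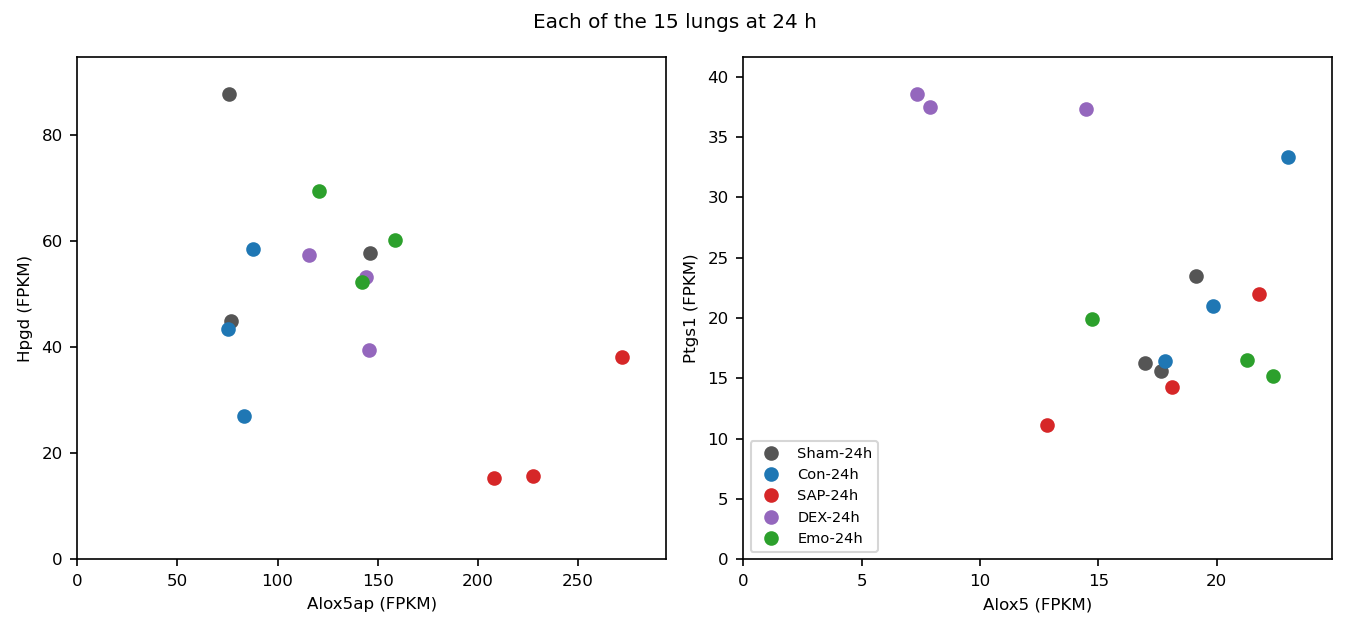
Levels in each of the 15 lungs at 24 hours in FPKM; the left panel plots Hpgd against Alox5ap and the right panel Ptgs1 against Alox5, with colours for the groups. SAP-24h lungs sit apart at high Alox5ap, and DEX-24h lungs sit at 37.3 to 38.6 FPKM of Ptgs1 with 2 of them at the lowest Alox5.

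The 250 bases before the start site are shown for Ptgs1 and Alox5, the members that passed the adjusted p in DEX-24h vs SAP-24h, since glucocorticoid-response letters can be looked for there. They come from RefSeq (build GRCr8, which is not the build of the counts), run 5′ to 3′ and mark matches in capitals. They lie at chr3:39981169-39981418 (+) for Ptgs1 and chr4:151251127-151251376 (-) for Alox5.
Ptgs1: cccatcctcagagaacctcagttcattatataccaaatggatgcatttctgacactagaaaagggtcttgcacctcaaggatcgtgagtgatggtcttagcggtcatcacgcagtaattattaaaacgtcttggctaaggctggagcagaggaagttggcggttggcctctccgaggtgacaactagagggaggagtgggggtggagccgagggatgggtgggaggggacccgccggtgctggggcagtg
Alox5: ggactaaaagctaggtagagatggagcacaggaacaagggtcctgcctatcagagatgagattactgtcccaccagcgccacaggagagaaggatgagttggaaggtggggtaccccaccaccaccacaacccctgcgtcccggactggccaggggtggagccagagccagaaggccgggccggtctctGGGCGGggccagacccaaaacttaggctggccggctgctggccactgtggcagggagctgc

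Motifs were searched on both strands, and each share is that of all 33360 promoters of this length with a match. The core promoter motif TATAAA was in 12.9% of them, and the GC box, GGGCGG, in 30.5%. The cAMP response element was searched as TGACGTCA (1.59%) and the NF-kB motif as GGGANTTCC (1.42%). The glucocorticoid receptor motif was searched as ACANNNTGT (5.80%), the C/EBP motif as TTNNGNAA (37.2%) and the AP-1 motif as TGACTCA (4.05%). The Ptgs1 promoter held none. The Alox5 promoter held 1 GC box at -61 to -56. In the 7 members with a promoter entry, the glucocorticoid receptor and NF-kB letters were not in this window. Entries were matched for 7 members and not for Ptgis, Alox5ap and Alox15. A match is a description of letters only.

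Alox5ap encodes FLAP, which presents arachidonic acid to 5-lipoxygenase. It was the member called for SAP-24h against both Sham-24h and Con-24h. SAP-24h had 208, 227 and 272 FPKM. Sham-24h had 76.97, 75.9 and 146 FPKM, and Con-24h had 83.3, 75.35 and 87.8 FPKM. All SAP-24h lungs lay above every Sham-24h and Con-24h lung. Alox5ap was up-regulated in SAP-24h vs Sham-24h by 1.36 (SE 0.31, adjusted p = 0.00767) and in SAP-24h vs Con-24h by 1.64 (SE 0.31, adjusted p = 0.00133). Both calls held without each library in turn. The call against Sham-24h was lost when only the compared groups were modelled (adjusted p = 0.0926).

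Both drug groups lay below SAP-24h for Alox5ap. DEX-24h had 146, 144 and 116 FPKM, and Emo-24h had 121, 142 and 159 FPKM, with no overlap with SAP-24h. The differences were -0.89 for DEX-24h (interval -1.52 to -0.25, adjusted p = 0.0785) and -0.89 for Emo-24h (interval -1.53 to -0.25, adjusted p = 0.0703), and neither was called. At 6 hours Alox5ap overlapped between SAP-6h and Sham-6h (log2 difference 0.48, adjusted p = 0.548). SAP-6h exceeded Con-6h by 0.64 with an adjusted p of 0.472. From SAP-6h to SAP-24h the difference was 0.72 (adjusted p = 0.150).

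Neutrophil genes were set beside Alox5ap. The summed FPKM of 8 neutrophil genes was 13500, 4760 and 17800 in SAP-24h and 1880, 426 and 9590 in Sham-24h. The Sham-24h lung with 9590 was also the one with 146 FPKM of Alox5ap. In Con-24h the sum was 1300, 239 and 438. The order of single lungs differed in part, since replicate 2 of SAP-24h had 4760 at 227 FPKM of Alox5ap and replicate 2 of Emo-24h had 6950 at 142 FPKM. Of the 8 genes, 1 was higher in SAP-24h vs Sham-24h (median log2 fold change 1.71) and 7 in SAP-24h vs Con-24h (median 3.47). In DEX-24h vs SAP-24h 2 of the 8 were lower (median -1.84), and in Emo-24h vs SAP-24h 1 was lower (median -1.03). In DEX-6h vs SAP-6h 0 were called (median -0.41), where Alox5ap differed by 0.41. S100a8 and S100a9, their defining genes, were above 0 in every library. These had the highest median levels of the 8 over all lungs, at 1380 and 1310 FPKM, and so count most in the sum. Of 7 macrophage genes, 1 was called higher in SAP-24h vs Sham-24h (median 0.28) and 1 in SAP-24h vs Con-24h (median 0.88). Their sum was 144 to 289 FPKM in SAP-24h, 187 to 222 FPKM in Sham-24h and 143 to 175 FPKM in Con-24h. The part of neutrophil or macrophage number in the Alox5ap result was not tested. Il1r2, a decoy receptor for interleukin-1, had the pattern most like Alox5ap over the 30 lungs (Pearson r = 0.912 of log2(FPKM + 1)), followed by Slc2a3 (0.894) and Dgat2 (0.876).

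**Figure D4:**
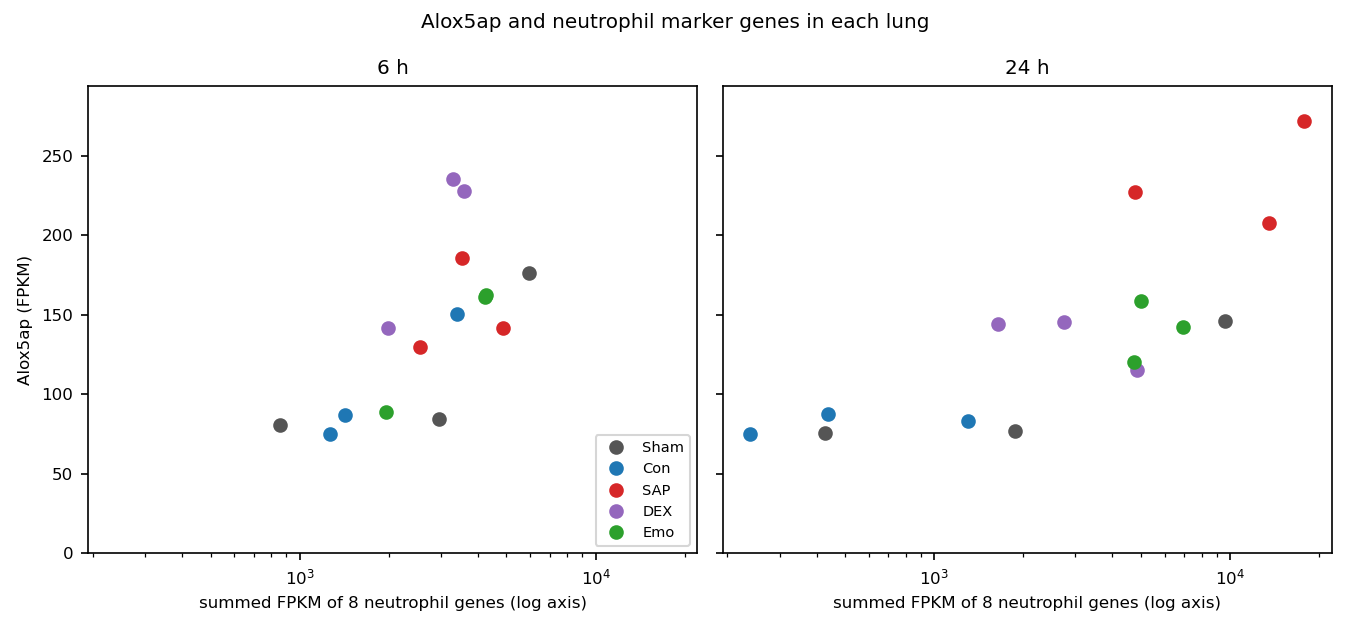
Alox5ap in FPKM against the summed FPKM of 8 neutrophil genes (log axis) in each lung at 6 hours (left) and 24 hours (right), coloured by group. At 24 hours the 3 SAP lungs lie at 208 to 272 FPKM of Alox5ap and at sums of 4760 to 17800, and the Sham lung at 9590 has 146 FPKM. S100a8 and S100a9 count most in the sum.

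Ltc4s encodes leukotriene C4 synthase, which makes the first cysteinyl leukotriene. It was lowest in SAP-6h, with 6.91, 6.88 and 5.50 FPKM from 112, 143 and 55 reads. DEX-6h had 16.75, 13.05 and 17.2 FPKM, all above the SAP-6h lungs. Ltc4s was up-regulated in DEX-6h vs SAP-6h by 1.27 (SE 0.28, adjusted p = 0.0285), a 2.41-fold higher level. The call was lost without replicate 1 (1.22, adjusted p = 0.121) or 3 (1.24, 0.105) of DEX-6h and without replicate 2 (1.30, 0.131) or 3 (1.17, 0.147) of SAP-6h. Mast cells are among the cells that make this enzyme. Of 8 mast cell genes, 1 was lower in DEX-6h vs SAP-6h, with a median log2 fold change of -0.33, and their sum was 44.6 to 60.5 FPKM in DEX-6h and 35.2 to 51.0 in SAP-6h. The genes most like Ltc4s over all lungs were Trpm5 (Pearson r = 0.74 of log2(FPKM + 1)), Sh2d6 (0.731) and Avil (0.731). None of these genes is in the marker lists used here. The part of mast cells, or of other cells that make the enzyme, in the Ltc4s result was not tested.

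Emo-6h had 18.7, 12.9 and 13.9 FPKM of Ltc4s, a separation from SAP-6h of similar size. The difference of 1.22 (SE 0.28) had an unadjusted p of 0.000204 and an adjusted p of 0.196, in a comparison where 4 genes in all were called. SAP-6h was also below Sham-6h, which had 8.26, 10.8 and 18.8 FPKM (log2 difference -0.92, adjusted p = 0.137), and below Con-6h with 7.17, 11.1 and 12.8 FPKM (-0.60, adjusted p = 0.454). Without 1 library these ran from -1.17 to -0.50 and from -0.78 to -0.39. By 24 hours SAP-24h had 9.89, 14.4 and 11.2 FPKM, above all SAP-6h lungs (0.97, adjusted p = 0.0396, under 2-fold). On leaving out any 1 of these 6 libraries the adjusted p was 0.0649 to 0.134.

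Alox15 encodes a lipoxygenase of eosinophils and some macrophages, which in the rat turns arachidonic acid mainly into 12-HETE and to a lesser extent into 15-HETE. It differed most between rats of a group. Con-6h had 6.27, 10.2 and 61.45 FPKM, and Sham-6h had 29.1, 3.79 and 5.15 FPKM, so single lungs set these means. Emo-6h was more even, with 17.8, 17.15 and 23.2 FPKM, and Emo-24h had 4.96, 6.13 and 1.35 FPKM. All Emo-24h lungs lay below all Emo-6h lungs. Alox15 was down-regulated in Emo-24h vs Emo-6h (log2 fold change -2.29, SE 0.86, adjusted p = 0.0433).

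That Alox15 call was lost on leaving out any 1 of the 6 lungs. The adjusted p was 0.0832, 0.0606 and 0.150 without replicates 1, 2 and 3 of Emo-24h. It was 0.0735, 0.0529 and 0.0881 without replicates 1, 2 and 3 of Emo-6h. SAP-24h had 1.16, 3.95 and 3.22 FPKM, below all SAP-6h lungs (-2.17, adjusted p = 0.126). Without 1 library that difference ran from -2.50 to -1.40. From Con-6h to Con-24h it was -1.77 (adjusted p = 0.467), and -0.061 without replicate 3 of Con-6h. The 5 eosinophil genes summed to 0.97 to 7.06 FPKM in Emo-6h and 1.01 to 3.45 in Emo-24h, and 1 of the 4 tested, Ccr3, was called higher in Emo-24h. Of the defining eosinophil genes, Epx was at 0 in 3 libraries and Prg2 was above 0 in all, and Il5ra was at 0 in 7. The 7 macrophage genes summed to 143 to 246 FPKM in Emo-6h and 231 to 320 in Emo-24h, where 2 were higher, and of their defining genes Mrc1 was above 0 in every library and Marco at 0 in 15.

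Over time, Hpgd was called in both drug groups. DEX-6h had 11.1, 22.0 and 27.5 FPKM, below all DEX-24h lungs, and the change was 1.33 (SE 0.38, adjusted p = 0.0126). Without replicate 1 of DEX-6h it was 1.03 (adjusted p = 0.0727). Emo-6h had 10.6, 19.8 and 8.72 FPKM, and the change to Emo-24h was 2.18 (SE 0.39, adjusted p = 0.000269), a 4.54-fold rise that held under every setting. The change was 1.04 in Sham (adjusted p = 0.121), 0.77 in Con (adjusted p = 0.474) and 0.76 in SAP (adjusted p = 0.213). The extra change with emodin over SAP was 1.42 (SE 0.53, adjusted p = 0.109). It was called without replicate 2 of Emo-6h (1.80, adjusted p = 0.0432) or replicate 3 of SAP-24h (1.95, adjusted p = 0.0395). In the other 10 fits without 1 library it was not called, down to 1.16 without replicate 2 of SAP-6h (adjusted p = 0.292). Cell markers were called over time as well. In DEX-24h vs DEX-6h 3 of 7 macrophage genes, 1 of 6 endothelial, 1 of 6 alveolar type 2 and 1 of 8 mast cell genes were higher, whereas 4 mast cell genes, 5 of 7 platelet genes and 1 of 5 smooth muscle genes were lower. In Emo-24h vs Emo-6h 2 macrophage genes, 1 alveolar type 2 and 1 eosinophil gene were higher, and 2 mast cell genes and 1 platelet gene were lower. None of the 5 alveolar type 1 genes was called in either. The part of these cells in the Hpgd changes was not tested.

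Counts of members over time followed those of all genes in part. Emo-24h vs Emo-6h had 3 members called (Hpgd, Ptgs2 and Alox15) and 9.41% of all genes. DEX-24h vs DEX-6h had 1 member called and 7.14% of all genes, with Alox5 at -0.76 (adjusted p = 0.00799, under 2-fold). Without replicate 3 of DEX-24h this was -1.12 and called, and without replicate 1 of DEX-24h it was -0.57 (adjusted p = 0.0673). No member was called for SAP-24h vs SAP-6h (2.42% of all genes), Sham-24h vs Sham-6h (0.257%) or Con-24h vs Con-6h (0.00628%), and DESeq2 called 0 in each. At an unadjusted p under 0.05 these had 3 members (24.8% of all genes), 1 member (20.4%) and 2 members (10.5%). None of the 4 interactions of treatment and time had a member called by edgeR, where 0.0314%, 0.138%, 1.68% and 0.0565% of all genes were called for SAP vs Sham, DEX vs SAP, Emo vs SAP and Emo vs DEX. In the same order DESeq2 called 0, 1, 0 and 0 members, and 1, 3, 3 and 4 members had an unadjusted p under 0.05, against 12.6%, 13.6%, 23.4% and 9.94% of all genes.

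The members behind those unadjusted counts, beside Alox5 and Hpgd above, had these differences between the effect at 24 hours and that at 6 hours. Ltc4s had 1.05 for SAP vs Sham (adjusted p = 0.259, and 0.66 to 1.33 without 1 library), -1.03 for DEX vs SAP (adjusted p = 0.239) and -0.89 for Emo vs SAP (adjusted p = 0.166). Alox5ap had -1.29 for DEX vs SAP (adjusted p = 0.193), and Ptgis had -0.81 for Emo vs SAP (adjusted p = 0.0936). For Emo vs DEX, beside Ptgis, Ptgs2 had 1.88 (adjusted p = 0.299), Alox5 0.80 (adjusted p = 0.296) and Ptgs1 -0.68 (adjusted p = 0.492).

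**Figure D5:**
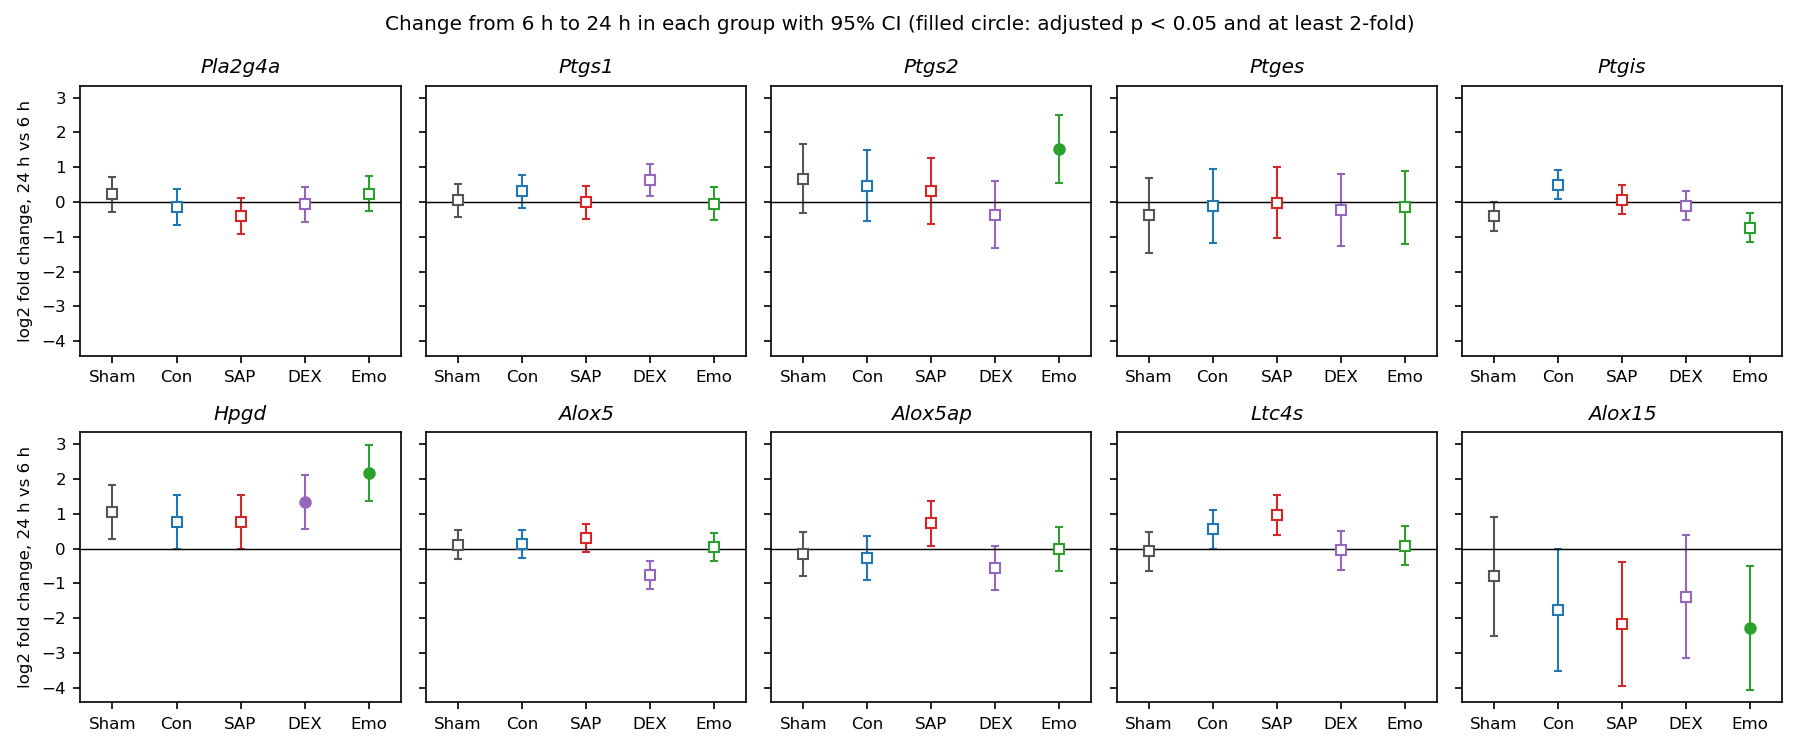
Log2 fold change from 6 to 24 hours in each treatment, 1 panel per gene, with the 95% confidence interval of the edgeR model; filled circles passed the adjusted p and the 2-fold limit, open squares did not. Hpgd is filled in DEX and Emo, and Ptgs2 and Alox15 in Emo only.

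Patterns across the lungs were also described by likeness, as Pearson r of log2(FPKM + 1) over the 30 lungs, which share groups and depth. Among genes with a mean of at least 1 FPKM, Fundc1 was nearest to Hpgd (0.897), and Prdx6 to Ptgs1 (0.842). Ascc1 was nearest to Ptgis (0.839), Iqgap3 to Alox15 (0.834), Chd3 to Alox5 (0.758), Plch1 to Pla2g4a (0.746) and Trpm5 to Ltc4s (0.740). By Spearman's rho these genes ranked 1 to 3 for their member, except Chd3, which ranked 117 for Alox5 (rho 0.625). Between members the highest r was 0.550, for Ptgs2 and Pla2g4a, and the lowest was -0.479, for Hpgd and Ptges.

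Other genes of the pathway were followed from lists of 58 gene symbols, of which 51 matched a single gene and 45 were tested. Cbr1 matched more than 1 row and was left out. In SAP-24h vs Sham-24h 2 of the 45 were lower and 0 higher (5.00% of all genes called), with a median log2 fold change of -0.05. Both were receptors. Ptgdr2, the prostaglandin D2 receptor of eosinophils and type 2 T cells, fell 2.65-fold (adjusted p = 0.0146). The thromboxane receptor Tbxa2r fell 2.60-fold (adjusted p = 0.0155). Each was lost without replicate 1 of SAP-24h (0.0552 and 0.0721) or replicate 1 of Sham-24h (0.0561 and 0.0682), and when only these groups were modelled (0.0957 and 0.0921). Of the 4 eosinophil genes tested, 1 was called lower in the same comparison (median -2.29), and their sum was 0.67 to 7.67 FPKM in SAP-24h and 1.19 to 50.9 FPKM in Sham-24h. In Emo-24h vs SAP-24h 1 was called higher (median -1.03), with a sum of 1.01 to 3.45 FPKM in Emo-24h. In SAP-24h vs Con-24h 0 were called (median 2.33). The part of eosinophils in the Ptgdr2 values was not tested.

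In SAP-24h vs Con-24h 3 of the 45 were higher and 2 lower (6.91% of all genes). Ptges3, a chaperone that also acts as a prostaglandin E synthase, rose by 1.20 on the log2 scale (adjusted p = 0.00342) and, without replicate 1 of SAP-24h, by 0.64 (adjusted p = 0.0521). Ltb4r, the leukotriene B4 receptor, rose by 2.02 (adjusted p = 0.0301), with 15.05, 1.30 and 9.84 FPKM in SAP-24h and 2.87, 2.82 and 1.44 FPKM in Con-24h. That call was lost on leaving out any 1 of the 6 libraries other than replicate 2 of SAP-24h (adjusted p 0.0610 to 0.207). Of 8 neutrophil genes, 7 were called higher in this comparison (median 3.47). Replicate 2 of SAP-24h had the lowest neutrophil sum of its group, 4760 FPKM. The part of neutrophils in the Ltb4r result was not tested. Ptgdr2 and Tbxa2r fell by 1.88 and 1.59 (adjusted p = 0.00135 and 0.00357). When only these groups were modelled, all 5 calls were lost, with an adjusted p of 0.122 for Ptges3, 0.167 for Ltb4r, 0.0727 for Ptgdr2, 0.0643 for Tbxa2r and 0.0729 for Cysltr1. Cysltr1, a cysteinyl leukotriene receptor, was called on 2 to 16 reads per library (1.92, adjusted p = 0.0269), and lost without replicate 1 or 2 of either group (0.0523 to 0.127). It was also the 1 gene of the 45 called higher in Sham-24h vs Con-24h (2.16, adjusted p = 0.0280, 1.00% of all genes), on 10 to 22 reads in Sham-24h. That call was lost without replicate 1 or 2 of Con-24h or 1 or 3 of Sham-24h (0.0712 to 0.142), and with only these groups modelled (0.0832), and DESeq2 gave it no adjusted p.

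After the drugs, Emo-24h vs SAP-24h had 2 of the 45 higher and 0 lower (median 0.05, 3.19% of all genes called). Ptgdr2 rose by 1.83 (adjusted p = 0.00549), a call that held without each library in turn and was lost when only these groups were modelled (adjusted p = 0.109). Tbxa2r rose by 1.17 (adjusted p = 0.0431) and was lost without any 1 library (0.0516 to 0.164). It was also lost with a replicate block (adjusted p = 0.0527), without the filter on low counts (0.0587) and with only these groups modelled (0.109). In DEX-24h vs SAP-24h 1 was higher and 1 lower (median -0.12, 3.73% of all genes called). Ptger3, a prostaglandin E2 receptor, rose by 1.06 (adjusted p = 0.00494), which fell under 2-fold without replicate 3 of DEX-24h (0.99) or replicate 1 of SAP-24h (0.88), and was lost when only these groups were modelled (adjusted p = 0.106). Cotl1, which binds 5-lipoxygenase, was down-regulated (log2 fold change -1.72, adjusted p = 0.000200).

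Cotl1 was 34.9, 37.3 and 30.6 FPKM in DEX-24h and 114, 94.6 and 109 FPKM in SAP-24h, far apart in every lung. In DEX-24h vs SAP-24h 2 of 8 neutrophil genes were called lower (median -1.84), and in Emo-24h vs DEX-24h 0 were called (median 0.73). The part of neutrophils in the Cotl1 values was not tested. In Emo-24h vs DEX-24h Cotl1 rose by 1.32 (adjusted p = 0.00153), 1 of 4 genes higher and 1 lower among the 45 (5.06% of all genes). Ggt1, which converts leukotriene C4 to D4, was the lower one, at -1.09 (adjusted p = 0.00313). Pla2g5 (1.92, adjusted p = 0.0359) and Ptgdr2 (1.14, adjusted p = 0.0400) were higher, each lost without replicate 2 or 3 of DEX-24h or replicate 1 or 2 of Emo-24h (adjusted p 0.0604 to 0.205 and 0.123 to 0.238). The Ptgdr2 call was also lost with a replicate block (adjusted p = 0.0560), without the filter (0.0579) and with only these groups modelled (0.124). Fpr2 was called as well, on 21, 52 and 2 reads in Emo-24h and 1, 1 and 0 reads in DEX-24h (adjusted p = 0.0118), and lost without replicate 3 of DEX-24h or replicate 2 of Emo-24h (0.0652 and 0.0849). It had too few reads to be tested with only these groups modelled.

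From Emo-6h to Emo-24h, 4 of the 45 were higher and 2 lower (9.41% of all genes). Hpgds, the haematopoietic prostaglandin D synthase, rose by 1.78 (adjusted p = 0.00653), and Ptgir, the prostacyclin receptor, rose by 1.10 (adjusted p = 0.00135). Dpep1, which cleaves leukotriene D4, fell by 1.07 (adjusted p = 0.00136). The other called genes were less stable. Cysltr1, on 3 to 25 reads, was at 2.09 (adjusted p = 0.00879, and 0.0551 without replicate 2 of Emo-24h). Pla2g5, a secreted phospholipase A2, was at 1.50 (adjusted p = 0.0410) and was lost without replicate 1 of Emo-24h or 1 or 3 of Emo-6h (0.116 to 0.205), under the replicate block (0.0530), without the filter (0.0593) and with only these groups modelled (0.0572). Pla2g4e, on 1 to 14 reads, was at -2.46 (adjusted p = 0.0355) and was lost without replicate 1 or 2 of Emo-24h or 1 of Emo-6h (0.107 to 0.135), without the filter (0.0535) and in DESeq2 (0.0522). Cysltr1 and Pla2g4e had too few reads to be tested with only these groups modelled.

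From DEX-6h to DEX-24h 3 were higher and 3 lower (7.14% of all genes). The lower ones were Ptgdr2 (-1.42, adjusted p = 0.00502), Pla2g1b (-1.29, adjusted p = 0.00739, and 0.0539 without replicate 1 of DEX-24h) and Pla2g4e (adjusted p = 0.0344), the last on 2, 9 and 4 reads in DEX-6h and 0, 0 and 1 in DEX-24h. Pla2g4e was lost without replicate 1 or 2 of DEX-24h or 2 of DEX-6h (0.103 to 0.160). The higher ones were Aloxe3, an epidermal lipoxygenase (1.52, adjusted p = 0.00861, and 0.0863 without replicate 3 of DEX-24h), Ptgir (1.01, adjusted p = 0.00445) and Cysltr1 (2.05, adjusted p = 0.0209). Ptgir was under 2-fold with RLE scaling, with DESeq2, with only these groups modelled and in 4 of the 6 fits without 1 library. Cysltr1 was lost without replicate 1 of DEX-24h or 2 or 3 of DEX-6h (0.0632 to 0.107), and both it and Pla2g4e had too few reads to be tested with only these groups modelled.

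From SAP-6h to SAP-24h 1 was higher and 1 lower (2.42% of all genes). Ptgdr2 was at -1.73 (adjusted p = 0.00857, and 0.0669 with only these groups modelled). Ptges3 was at 1.07 (adjusted p = 0.0217) and was lost without replicate 1 of SAP-24h or 1 or 3 of SAP-6h (0.0584 to 0.182), and with only these groups modelled (0.198). At 6 hours Emo-6h vs DEX-6h had 1 higher, Ptger4 (1.09, adjusted p = 0.0140), and 1 lower, Mgst2 (-1.05, adjusted p = 0.00544), with 1.41% of all genes called. Ptger4 was lost without any 1 of the DEX-6h lungs or replicate 1 of Emo-6h (adjusted p up to 0.0631), and when only these groups were modelled (0.0551). Mgst2 fell under 2-fold without replicate 1 of DEX-6h (-0.90) or, barely, replicate 1 of Emo-6h.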

How the data were processed

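RNA-seq was performed by the authors on poly-A RNA of lung tissue from 30 rats, flushed with saline through the pulmonary artery, in directional paired-end libraries. The authors clipped reads with FASTX, mapped them with TopHat2 allowing 2 mismatches to the rat genome they call rat_ensembl_v6, and dropped reads with several positions. The counting program and its strand setting are not given in the sources used here. For 22914 genes the authors deposited read counts, which are not normalized. The deposited FPKM values, scaled by the authors for length and depth, cover 22907 genes.

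Counts were tested with edgeR 4.0.16 (limma 3.58.1) in R 4.3.3. Genes were kept by filterByExpr (minimum count 10, minimum total 15), scaled by TMM and fitted with the quasi-likelihood method, all 10 groups and 30 libraries in 1 model (20 residual degrees of freedom). P-values were adjusted by Benjamini-Hochberg over 15934 genes in each of 21 comparisons, and a call needed an adjusted p under 0.05 and at least 2-fold. The steps were tested on simulated data. FPKM served for levels and, as log2(FPKM + 1), for likeness (Python 3.11.15, numpy 2.4.6, pandas 2.3.3, scipy 1.17.1, matplotlib 3.10.9). Each library came from the lung of 1 rat.

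The members and the pathway and marker lists were chosen with earlier results of these data known. All members were named. A member's fold change was printed where its unadjusted p was under 0.05, with some others beside their values. Pathway genes were named where called, at most 4 per list, with the first 2 genes of a marker list and the genes most alike to a member. Ccr3 and Il5ra were named after their values were seen. Alternatives were RLE scaling, DESeq2 1.42.0, no filter, only the compared groups in the model, a replicate block, no fold limit and each library left out. The labels give a replicate number and name no pairs of rats. Deviations of same-numbered rats correlated above 0.1 in all 3 pairs only for DEX-24h vs DEX-6h (correlations 0.212, 0.221 and 0.230). Differently numbered rats were not compared, so these values do not show a pairing. The Hpgd call in DEX-24h vs DEX-6h was kept under the block. The interaction of Emo vs DEX with time was added after seeing the data. RefSeq promoters (GRCr8) were matched by symbol.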

Additional observations from a re-analysis of the deposited data

Results flagged for a closer look

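The Hpgds gene, which encodes the haematopoietic prostaglandin D synthase, had an emodin effect that differed between the times by a test of the difference itself. The effect of Emo vs SAP at 24 hours minus that at 6 hours was 3.05 on the log2 scale (edgeR, SE 0.67, adjusted p = 0.0230). At 6 hours SAP-6h had 0.67, 2.24 and 1.90 FPKM and Emo-6h had 0.48, 0.34 and 0.38 FPKM. At 24 hours SAP-24h had 0.48, 0.57 and 0.78 FPKM and Emo-24h had 1.70, 1.26 and 1.31 FPKM. Emodin lungs were thus all below SAP lungs at 6 hours and all above them at 24 hours. Taken singly, Hpgds was called neither in Emo-6h vs SAP-6h nor in Emo-24h vs SAP-24h. The 5 eosinophil genes summed to 3.35, 33.1 and 38.5 FPKM in SAP-6h and 0.97 to 7.06 FPKM in Emo-6h, and to 0.67 to 7.67 FPKM in SAP-24h and 1.01 to 3.45 FPKM in Emo-24h. In the same interaction 1 of the 4 tested eosinophil genes was called higher (median 2.83), and the median of 8 mast cell genes was 1.07 with 0 called. Their part in the Hpgds result was not tested. The call was lost without replicate 1 or 2 of Emo-24h, replicate 1 or 3 of Emo-6h or replicate 2 of SAP-6h (adjusted p 0.0501 to 0.0945), and when only the compared groups were modelled (adjusted p = 0.101).

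Ptgis was marked because all Emo-6h lungs were above all DEX-6h lungs and all Emo-24h lungs below all DEX-24h lungs. Emo-6h had 32.3 to 35.6 FPKM and DEX-6h 28.0 to 30.5 FPKM, and Emo-24h had 18.2 to 23.6 FPKM and DEX-24h 25.3 to 28.7 FPKM. The difference between the times was -0.64 on the log2 scale (edgeR, SE 0.28, unadjusted p = 0.0338, adjusted p = 0.452). This comparison was added after seeing the data.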

How the results depend on the processing

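Counts of called members moved by over 1.5 times in these cases. With only the compared groups modelled, there were 2 for Emo-24h vs DEX-24h and 0 each for SAP-24h vs Sham-24h and for both drugs against SAP-24h. With DESeq2, SAP-24h vs Con-24h had 2, DEX-24h vs SAP-24h had 2 and the DEX vs SAP interaction with time had 1. With no fold limit, DEX-24h vs SAP-24h had 2, Emo-24h vs DEX-24h had 2, SAP-24h vs SAP-6h had 1 and DEX-24h vs DEX-6h had 3. Leaving out 1 library gave 0 to 1 for DEX-6h vs SAP-6h and Emo-24h vs SAP-24h, 1 to 2 for DEX-24h vs SAP-24h, SAP-24h vs Sham-24h, Emo-24h vs DEX-24h and Emo-24h vs Emo-6h, and 1 to 3 for SAP-24h vs Con-24h. It gave 0 to 2 for DEX-24h vs DEX-6h and 0 to 1 for the DEX vs SAP and Emo vs SAP interactions.

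Signs changed only for differences that were not called. Without 1 library, Ptgs1 in SAP-24h vs Sham-24h ran from -0.39 to 0.12 and Alox5 in SAP-24h vs Sham-24h from -0.063 to 0.25. In the replicate block, Alox15 in Emo-24h vs Emo-6h was -2.28 and no longer called (adjusted p = 0.0575), and no other member call was lost; among pathway genes the block also ended the calls of Tbxa2r in Emo-24h vs SAP-24h, Ptgdr2 in Emo-24h vs DEX-24h and Pla2g5 in Emo-24h vs Emo-6h. By the labels, same-numbered rats share only a number. RLE scaling changed no member call. Ptgs2 and Ptges had the fewest reads of the members, at 13 to 210 per library, and 3 rats per group limit all tests. Causes of these changes were not tested.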
